A study of Zea mays with 12 samples.

Results

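Transcripts were followed over time in the growing tips of unstressed maize primary roots, by comparing tips harvested 48 h after transplanting (WW48) with tips harvested at 24 h (WW24). The comparison took 6 of the 12 libraries of the series, 3 in each group, and all 42976 gene rows of the count table. Seedlings of the inbred line FR697 grew in the dark in vermiculite at a water potential of −0.02 MPa, which is well-watered. The apical 12 mm of the primary root was taken at both times and tips of several seedlings were pooled for each library, so the groups differed in seedling age and root length and not in treatment or segment length. The other 6 libraries came from FR697 seedlings at −1.6 MPa, harvested at the same times as 7 mm tips (WS24 and WS48), and are used here for the spread of the fit and for values side by side. The study took WW24 as its developmental control, the control matched to stressed roots in length. FR697 is 1 inbred line, and replicates are described by the study as independent experiments.

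A primary root tip holds the root cap, the meristem in which cells divide and the elongation zone in which cells lengthen before they mature. Lengthening needs loosening of the cell wall, in which expansins and xyloglucan endotransglucosylases take part, together with the uptake of water and solutes and the delivery of new wall material. Behind the elongation zone, walls are stiffened by lignin and other phenolics, and barriers of suberin and the Casparian strip form around the vascular tissue. In a root that grows steadily, cells pass through these zones one after another while the zones keep their distance from the tip.

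Between 42677996 and 54863708 counts fell on genes in the 6 well-watered libraries, and 26746 features with enough counts were tested. Levels are in CPM, a gene's counts relative to the library's total (counts per 1e6) after TMM scaling, given for replicates 1, 2 and 3 in that order or as mean ± SD (n = 3). Changes are log2 fold changes of WW48 against WW24, and their SE is approximate. On 14224 features the first principal component of the 6 well-watered libraries held 46.1% of the variance and parted both times. WW24 libraries lay together on it, from −14.8 to −13.4, whereas WW48 libraries were spread out at 26.1, 11.3 and 4.27. WW48 replicate 1 thus stood apart from the other libraries of its group, and the counts of calls in the well-watered comparison are given with and without it.

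Sums of marker genes of cell types are given for both times. With no other tissue beside them, they do not identify the tissue. Genes of dividing cells (D-type cyclins, origin recognition complex protein 6, RPA70, histones H1-3 and H2AX, 6 of 6 tested) summed to 99.0 to 110.1 CPM in WW24 and 97.7 to 116 CPM in WW48, and none was called. Root hair genes (3 of 3 tested) summed to 27.3 to 33.6 CPM and 32.8 to 35.7 CPM, and phloem protein 2 genes (4 of 4) to 51.1 to 53.4 CPM and 51.8 to 55.5 CPM. The 9 xylem and secondary wall genes, which include laccases and cellulose synthase A9, summed to 50.7 to 64.5 CPM and 66.1 to 92.9 CPM. These sums did not overlap, but none of the 9 was called and 0 had groups apart on its own. Cellulose synthase A9 held much of the sum, at 30.6 ± 5.36 CPM in WW24 and 44.9 ± 13.6 CPM in WW48. Of all tested features 10.7% were higher in every WW48 library. Nuclear photosynthesis genes (1 of 2 tested) summed to 3.92 to 8.36 CPM in WW24 and 3.05 to 7.59 CPM in WW48, and none was called. Of 21 plastid photosynthesis genes, 20 had no count in any well-watered library. The study isolated mRNA with oligo-dT beads, so the missing plastid counts cannot speak for the tissue. Seed genes (7 of 8 tested) summed to 107.5 to 119.6 CPM and 92.2 to 176.0 CPM, with 1 increase, a cupin described below. Lateral root genes summed to 3.29 to 6.0 CPM and 2.83 to 4.87 CPM. In these bulk tips fewer cells of a type and less RNA per cell cannot be told apart, and the part of the xylem genes' levels in the results below was not tested.

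Between 24 h and 48 h, 211 features increased and 51 decreased, where a call needed adjusted p ≤ 0.05 together with a 2-fold or larger change. That is 0.789% and 0.191% of all features tested, and 0.98% for both directions. Among described genes with an average log2 CPM of at least 1 over the 12 libraries, the widest increases included a chalcone synthase family gene, an O-methyltransferase and a hydroxyproline-rich glycoprotein. Flavanone 3-hydroxylase was also among them, but its call was lost without WW48 replicate 1, where its log2 change fell from 3.10 to 1.58. The widest decreases included a sugar transporter family gene, a dehydrin, beta-galactosidase 11 and starch branching enzyme 2.2. Some of these genes, such as the sugar transporter family gene and the dehydrin (0.402 and 1.33 CPM in WW24), reached that average through the stressed libraries. The median size of the change over all tested features was 0.15 on the log2 scale, and the median change was −0.0014. For size, the same rule called 1926 features increased and 1840 decreased in WS48 vs WW48. Without the fold threshold, 692 features passed the adjusted p (501 higher and 191 lower), 2.59% of those tested. Called features were mostly of low or middle abundance. Of 2360 features that reached a mean of 100 CPM at either time, 7 were called.

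**Figure D1:**
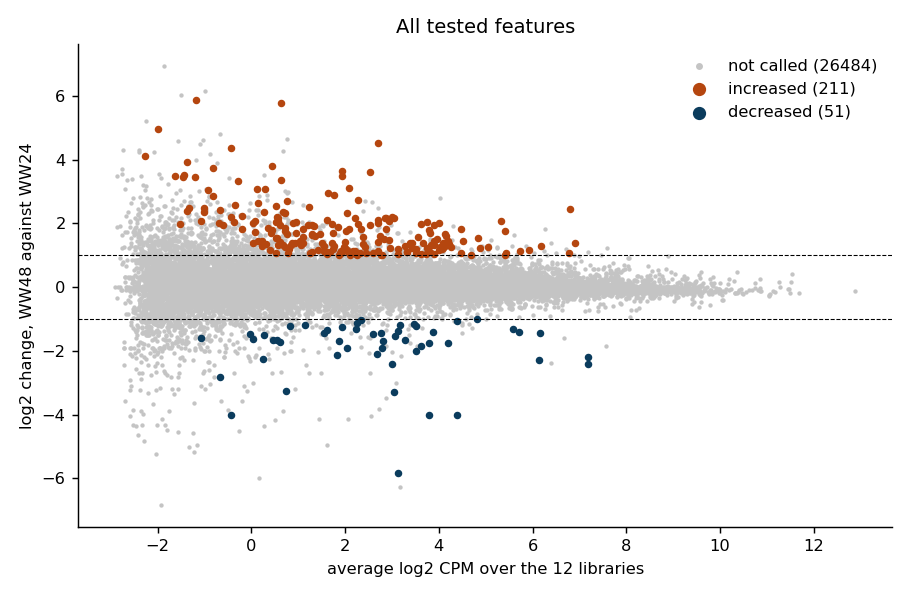
Each point is 1 of 26746 tested features, by average log2 CPM over the 12 libraries (x axis) and log2 change of WW48 against WW24 (y axis), with dashed lines at a log2 change of 1 in either direction. Coloured points are the 211 increased and 51 decreased features, and uncoloured points past the lines did not pass the adjusted p.

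The groups did not overlap for 209 of the 211 increased and 50 of the 51 decreased features, beside 10.7% of all tested features that were higher and 9.72% that were lower in every WW48 library. Calls depended on single libraries. WW48 replicate 1 was the highest of the 6 libraries for 140 increased features, replicate 2 for 41 and replicate 3 for 30. Without WW48 replicate 1 the fit called 71 increased and 28 decreased features, and 67 and 18 of them were among the original calls. Without WW24 replicate 2 the counts were 85 and 40, without WW24 replicate 3 they were 91 and 24, and without WW48 replicate 3 they were 333 and 62. In all 6 leave-one-out fits 36 increased and 16 decreased features kept their call. With the spread estimated from the 6 well-watered libraries alone, 42 increased and 17 decreased features were called. A test of whether the change exceeded a log2 value of 1 (glmTreat) called 0 increased features and 1 decreased feature.

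**Figure D2:**
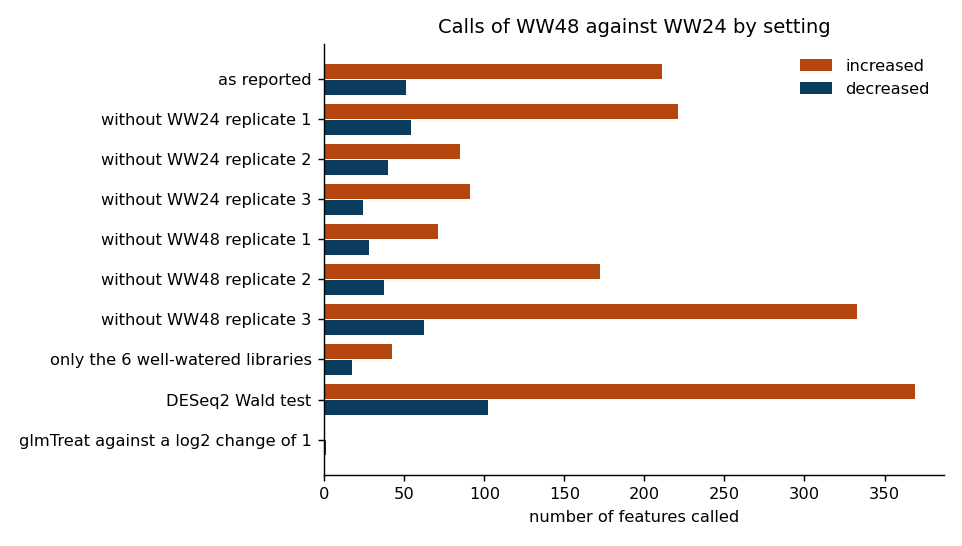
Bars give the number of features called increased and decreased in WW48 against WW24 (x axis) under each setting (y axis). Leaving out WW48 replicate 1, WW24 replicate 2 or WW24 replicate 3 left 71, 85 and 91 increased features of 211, and glmTreat left 0 increased and 1 decreased.

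Names were at hand for few of the called genes. Descriptions come from the study's own tables of stress-responsive transcripts and orthologs, and 1507 tested nuclear genes carry one. Of these, 33 increased (2.19%) and 15 decreased (0.995%), together 3.19% against 0.848% of the features without a description. Without WW48 replicate 1 the counts were 10 and 11. The calls in each list below are to be read beside the shares of 2.19% and 0.995%. Described genes as a whole had a median log2 change of 0.09, and 59.5% of them were above 0. Most described genes were chosen by the study for their response to stress on these same libraries, so counts over them and over the lists drawn from them are not independent evidence and do not stand for all genes of a pathway. Among the other calls were 208 nuclear genes without a description, 5 assembled transcripts and 1 label of similarity to a known protein. Described genes that kept their call in every leave-one-out fit comprised 6 that increased and 7 that decreased. Those fits still took part of their spread from the stressed libraries. With the 6 well-watered libraries alone, Zm00001d052673, Zm00001d047194, Zm00001d040997 and Zm00001d044110 of these were not called (adjusted p = 0.0541 to 0.0715). For described genes that lost their call in a leave-one-out fit, each library is named whose removal, on its own, ended the call, with the adjusted p of those fits.

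**Figure D3:**
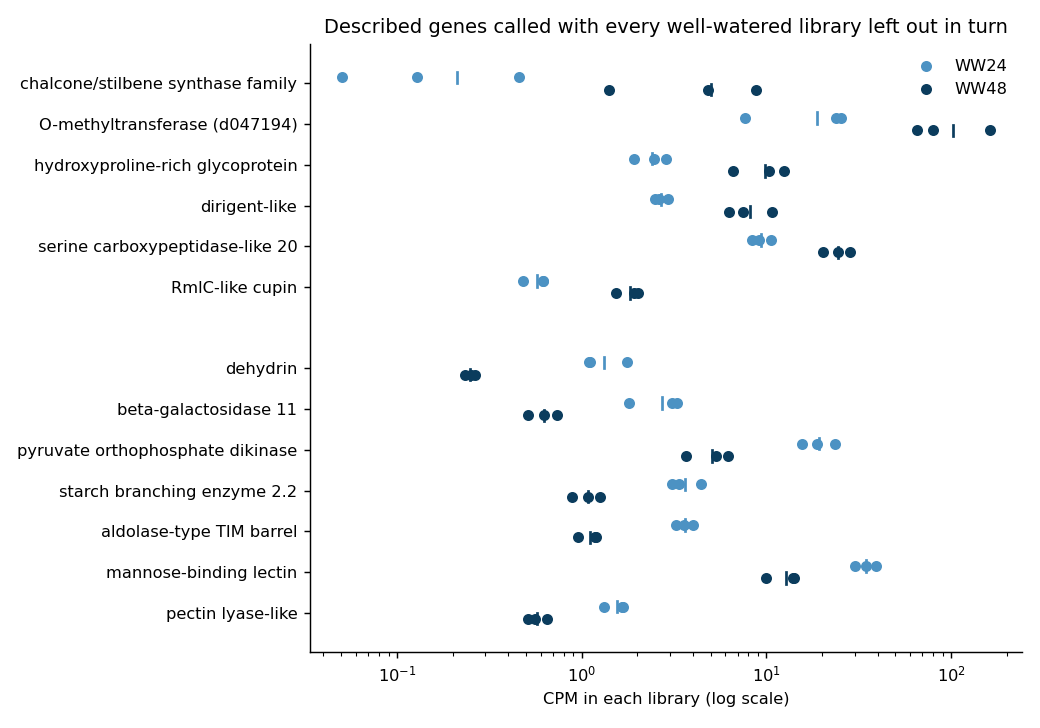
Points are CPM in single libraries (x axis, log scale) of the 13 described genes that kept their call with each well-watered library left out in turn, with WW24 in light blue, WW48 in dark blue and a bar at each group's mean. In the upper 6 genes all WW48 libraries lie above all WW24 libraries, and in the lower 7 all lie below.

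The widest described increase was in a family at the entry to flavonoids. A chalcone and stilbene synthase family gene, Zm00001d052673, of the family that joins phenylpropanoid and malonyl units at the entry to flavonoids, had 0.128, 0.0506 and 0.458 CPM at 24 h and 4.82, 8.79 and 1.4 CPM at 48 h. All WW48 libraries were higher, and they differed among themselves by several CPM. Its change of 4.52 in log2 units (SE 0.74, adjusted p = 0.0122) was the widest of the described increases and rested on 28 counts in WW24 and 676 in WW48. Flavanone 3-hydroxylase (Zm00001d001960), which acts further along the flavonoid pathway, had 0.255, 0.127 and 0.183 CPM at 24 h and 3.72, 0.384 and 0.769 CPM at 48 h, so that WW48 replicate 1 carried most of its change, which was 1.58 in log2 units without that library. Its change of 3.10 in log2 units (SE 0.75, adjusted p = 0.0491) was lost without WW24 replicates 1, 2 or 3 or WW48 replicate 1 (adjusted p = 0.0871 to 0.155).

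UDP-glycosyltransferases, which attach sugars to small molecules such as flavonoids and hormones, increased in 2 cases. UDP-glucosyl transferase 85A2 (Zm00001d021219) rose from 3.82 ± 0.69 to 8.07 ± 0.985 CPM, with a change of 1.08 in log2 units (SE 0.21, adjusted p = 0.0243). Zm00001d052210 rose from 3.1 ± 0.725 to 6.34 ± 1.58 CPM, with a change of 1.01 in log2 units (SE 0.21, adjusted p = 0.029). The WW24 and WW48 libraries of both were apart. The first call was lost without WW24 replicates 1 or 3 or WW48 replicate 1 (adjusted p = 0.058 to 0.0867) and the second without WW24 replicates 1 or 2 or WW48 replicate 1 (adjusted p = 0.0634 to 0.106). In all, 4 of the 28 tested genes described as flavonoid enzymes or UDP-glycosyltransferases increased and 0 decreased, with a median log2 change of 0.42. Of these 28 genes, 22 had a change above 0, beside 59.5% of described genes and 49.6% of all features.

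O-methyltransferases and HXXXD-type acyltransferases are large families of which many members modify phenolics. The more abundant of their increased genes, the O-methyltransferase Zm00001d047194, had 7.66, 25.3 and 23.7 CPM at 24 h and 163, 80.3 and 65.3 CPM at 48 h. Every WW48 library exceeded every WW24 library, and replicate 1 was the highest. Its change of 2.45 in log2 units (SE 0.41, adjusted p = 0.0128) was kept in all 6 leave-one-out fits. Under stress the same gene stood at 155 ± 22.6 CPM in WS24 and 166 ± 39.4 CPM in WS48, above every WW24 library. The acyltransferase Zm00001d039615 rose from 2.62 ± 1.21 to 13 ± 4.64 CPM, with a change of 2.31 in log2 units (SE 0.40, adjusted p = 0.0146) that was lost without WW24 replicate 2 or WW48 replicate 1 (adjusted p = 0.0535 to 0.0542). Another O-methyltransferase, Zm00001d049181, went the other way, from 2.88 ± 0.366 to 1.12 ± 0.21 CPM, with a change of −1.37 in log2 units (SE 0.25, adjusted p = 0.0179) that was lost without WW24 replicate 3 or WW48 replicate 1 (adjusted p = 0.0657 to 0.0763). Over the 31 tested members 2 increased and 1 decreased, with a median of 0.35.

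Among genes tied to lignin, a dirigent-like gene, Zm00001d023570, increased. Dirigent proteins steer the coupling of phenolic radicals into lignans and lignin-like polymers. It had 2.64, 2.51 and 2.93 CPM at 24 h and 10.8, 7.44 and 6.31 CPM at 48 h. The groups were well apart, and its change of 1.60 in log2 units (SE 0.24, adjusted p = 0.00801) was kept in all 6 leave-one-out fits. That was the only call among 16 tested lignin and phenylpropanoid genes, whose median was 0.54, with 10 members above 0, beside 59.5% of described genes. Class III peroxidases, which cross-link wall phenolics, had 0 calls among 28 tested. The most abundant of them, Zm00001d022458, had 681, 965 and 899 CPM at 24 h and 1069.7, 747 and 732 CPM at 48 h, fully overlapping.

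Cell wall polymers gave 1 increase and 2 decreases, where 2.19% of all described genes increased and 0.995% decreased. A hydroxyproline-rich glycoprotein family gene, Zm00001d022420, related by name to the structural glycoproteins of the wall, had 1.92, 2.86 and 2.45 CPM at 24 h and 10.4, 12.4 and 6.59 CPM at 48 h. Its 3 WW48 libraries lay between 6.59 and 12.4 CPM, above the highest WW24 value of 2.86 CPM. The change of 2.03 in log2 units (SE 0.23, adjusted p = 0.00277) was kept in all 6 leave-one-out fits, and it was the only call among 20 tested wall glycoproteins. Beta-galactosidase 11 (Zm00001d053225), of a family that removes galactose from wall polysaccharides, had 1.81, 3.29 and 3.09 CPM at 24 h and 0.733, 0.624 and 0.512 CPM at 48 h. Its groups were apart, with a change of −2.11 in log2 units (SE 0.23, adjusted p = 0.0022). A pectin lyase-like gene, Zm00001d044110, of a superfamily of pectin-cleaving enzymes, fell from 1.55 ± 0.202 to 0.573 ± 0.069 CPM, with a change of −1.44 in log2 units (SE 0.16, adjusted p = 0.0022). Both decreases were kept in all 6 leave-one-out fits. They were the only calls among 18 glycosyl hydrolases of the wall and 14 pectin enzymes.

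Genes of wall loosening were not called. Alpha-expansins (8 tested), beta-expansins and expansin-like genes (9) and xyloglucan endotransglucosylases (7) had medians of −0.06, 0.13 and −0.01. Expansin A1 (Zm00001d043047), the most abundant described alpha-expansin, had 119, 156 and 152 CPM at 24 h and 117, 74.5 and 76.8 CPM at 48 h, with a change of −0.67 in log2 units (SE 0.18, adjusted p = 0.0671). Its WW48 libraries were all lower, but replicate 1 almost reached the lowest WW24 library. Xyloglucan endotransglucosylase/hydrolase 25 (Zm00001d014617), an enzyme that cuts and rejoins xyloglucan, had 52.9, 58.8 and 55.3 CPM at 24 h and 73.7, 77 and 70.1 CPM at 48 h. The groups were apart, yet its change of 0.40 in log2 units (SE 0.10, adjusted p = 0.0634) missed both thresholds. Cellulose and xylan synthesis genes (16 tested) likewise had 0 calls, with a median of 0.31 and 2 members past the adjusted p alone. One of these was the glycosyltransferase family 61 gene Zm00001d014722, from 86 ± 2.18 to 106 ± 4.96 CPM (log2 change 0.29, adjusted p = 0.0452).

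Barrier lipids and lipid transfer proteins gave 3 increases, where 2.19% of all described genes increased. The GDSL-like lipase/acylhydrolase Zm00001d014244, of a family of which some members act on cutin and suberin, had 2.77, 2.81 and 3.76 CPM at 24 h and 23.1, 9.2 and 9.69 CPM at 48 h. All WW48 libraries were higher and replicate 1 was the highest by a wide margin, and its change of 2.17 in log2 units (SE 0.46, adjusted p = 0.0336) was lost without WW24 replicates 1, 2 or 3 or WW48 replicate 1 (adjusted p = 0.0687 to 0.139). It was the only call among 34 tested genes of suberin, cutin and fatty acid elongation. Lipid transfer proteins, small secreted proteins that carry lipids, had 2 increases among 29 tested and 4 decreases past the adjusted p alone. Zm00001d042862 rose from 0.542 ± 0.276 to 1.61 ± 0.668 CPM and Zm00001d013089 from 0.571 ± 0.20 to 1.4 ± 0.216 CPM, with adjusted p = 0.0484 and 0.0236, and neither passed 2.5 CPM in any well-watered library. The call of Zm00001d042862 was lost without WW24 replicates 2 or 3 or WW48 replicates 1 or 2 (adjusted p = 0.102 to 0.179) and that of Zm00001d013089 without WW24 replicates 1 or 2 or WW48 replicate 1 (adjusted p = 0.0521 to 0.0843). The most abundant member, Zm00001d029859, had 1082, 1176 and 1227 CPM at 24 h and 808, 947 and 853 CPM at 48 h, lower in every WW48 library with a change of −0.42 in log2 units (SE 0.11, adjusted p = 0.058) that missed both thresholds.

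Genes of sucrose and starch (22 tested), sugar transport (11) and low oxygen and fermentation (7) had 1 decrease each and 0 increases, with medians of −0.04, 0.09 and 0.02. Starch branching enzyme 2.2 (Zm00001d016684), which makes the branches of amylopectin, had 3.08, 4.41 and 3.34 CPM at 24 h and 0.887, 1.08 and 1.26 CPM at 48 h. Its WW24 libraries were all above 3 CPM and its WW48 libraries near 1 CPM. The change of −1.75 in log2 units (SE 0.17, adjusted p = 0.0015) was kept in all 6 leave-one-out fits. Pyruvate orthophosphate dikinase (Zm00001d038163), which turns pyruvate into phosphoenolpyruvate, had 15.7, 18.8 and 23.5 CPM at 24 h and 6.19, 3.67 and 5.36 CPM at 48 h. The groups were far apart, with a change of −1.93 in log2 units (SE 0.21, adjusted p = 0.00241). The Nodulin MtN3 family gene Zm00001d029135, of the family that holds the SWEET sugar transporters, had 51 counts over WW24 and 3 over WW48, a ratio of 17.8 (exact 95% counting interval 5.76 to 89.2). With an adjusted p of 0.0401, this call was lost without WW24 replicates 2 or 3 or WW48 replicates 1, 2 or 3 (adjusted p = 0.0527 to 0.154). Most of the gene's counts came from stressed tips, at 36.2 ± 15.5 CPM in WS24 and 18.6 ± 1.41 CPM in WS48. With the 6 well-watered libraries alone it was not tested. Raffinose and trehalose genes (13 tested) had 0 calls and a median of 0.02.

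Other decreases among described genes were of mixed function. An aldolase-type TIM barrel gene, Zm00001d020008, had 3.23, 3.57 and 4.01 CPM at 24 h and 1.18, 1.2 and 0.955 CPM at 48 h, with a change of −1.69 in log2 units (SE 0.17, adjusted p = 0.0015) kept in all 6 leave-one-out fits. All 3 WW48 libraries lay far below the WW24 libraries. A mannose-binding lectin superfamily gene, Zm00001d035561, had 30, 34.4 and 39.5 CPM at 24 h and 9.95, 14 and 14.2 CPM at 48 h, with a change of −1.45 in log2 units (SE 0.21, adjusted p = 0.00801) that was likewise kept. An NAD(P)-binding Rossmann-fold gene, Zm00001d007700, was the most abundant described gene to fall, with 129, 159 and 239 CPM at 24 h and 52.7, 13.3 and 41.8 CPM at 48 h. WW48 replicate 2 was the lowest and the groups were apart, but its change of −2.29 in log2 units (SE 0.40, adjusted p = 0.0153) was lost without WW24 replicate 3 (adjusted p = 0.0567). Basic chitinase (Zm00001d027525), which cleaves chitin of fungal walls, fell from 1.38 ± 0.296 to 0.472 ± 0.0756 CPM (log2 change −1.54, adjusted p = 0.0111), a call lost without WW48 replicate 1 (adjusted p = 0.0506). Subtilase 4.13 (Zm00001d039129), a serine protease, fell from 0.971 ± 0.214 to 0.297 ± 0.136 CPM (log2 change −1.70, adjusted p = 0.0261), lost without WW24 replicates 1 or 3 or WW48 replicate 1 (adjusted p = 0.058 to 0.0798). An allergen-related gene, Zm00001d038469, fell from 3.77 ± 1.28 to 1.18 ± 0.60 CPM (log2 change −1.66, adjusted p = 0.0363), lost without WW24 replicates 2 or 3 or WW48 replicates 1 or 2 (adjusted p = 0.0588 to 0.127). A RING finger gene, Zm00001d036072, named after its values were seen, went from 38.5 ± 18.1 to 14.4 ± 4.17 CPM, the only decrease among described genes whose groups overlapped, and was lost without WW24 replicates 2 or 3 or WW48 replicates 1 or 2 (adjusted p = 0.0987 to 0.136).

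Genes of dehydration tolerance moved in both directions. A dehydrin family gene, Zm00001d037894, a family of water-binding proteins made in drying seeds and stressed tissue, had 1.77, 1.11 and 1.1 CPM at 24 h and 0.251, 0.264 and 0.233 CPM at 48 h. The 3 WW48 libraries were close to each other and below every WW24 library. Its change of −2.41 in log2 units (SE 0.28, adjusted p = 0.0030) was kept in all 6 leave-one-out fits, at levels far below the 468 ± 64.5 CPM in WS24 and 116 ± 11.8 CPM in WS48. A LEA-related gene, Zm00001d047331, rose from 0.382 ± 0.342 to 2.61 ± 0.669 CPM with a change of 2.74 in log2 units (SE 0.53, adjusted p = 0.0229), lost without WW24 replicate 1 (adjusted p = 0.0527). The LEA protein gene Zm00001d009382 had 4 counts over WW24 and 29 over WW48, a ratio of 6.92 (exact 95% counting interval 2.43 to 27.1), and its call (adjusted p = 0.030) was lost without WW24 replicates 1, 2 or 3 or WW48 replicate 2 (adjusted p = 0.0511 to 0.0735). Of the 20 tested LEA and dehydrin genes, 2 increased and 1 decreased, and the median was 0.33. Heat shock proteins and factors (28 tested) and catalases and other antioxidant enzymes (6) had 0 calls, with medians of 0.04 and 0.07.

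Hormone genes gave 2 increases, 1 among 8 tested genes of gibberellin and brassinosteroid and 1 among 23 of abscisic acid. Of all described genes 2.19% increased. Ent-kaurenoic acid hydroxylase 2 (Zm00001d047830), which makes a gibberellin precursor, had 1.08, 2.23 and 0.87 CPM at 24 h and 19.4, 6.51 and 6.01 CPM at 48 h. All WW48 libraries were higher, replicate 1 by far the most. Its change of 2.94 in log2 units (SE 0.58, adjusted p = 0.0244) was lost without WW24 replicates 1 or 3 or WW48 replicate 1 (adjusted p = 0.0573 to 0.12). Highly ABA-induced PP2C gene 2 (Zm00001d028574), of the phosphatases that hold abscisic acid signalling in check, had 2.13, 1.27 and 1.26 CPM at 24 h and 4.17, 2.19 and 5.4 CPM at 48 h, with a change of 1.33 in log2 units (SE 0.28, adjusted p = 0.0324) lost without WW24 replicates 2 or 3 or WW48 replicates 1 or 3 (adjusted p = 0.0557 to 0.119). Ethylene, jasmonate, auxin, and cytokinin and strigolactone genes had 0 calls among 10, 12, 11 and 6 tested. Of the jasmonate and ethylene genes 11 of 12 and 8 of 10 had a change above 0, with medians of 0.42 and 0.64, beside 59.5% and 0.09 for described genes. 12-oxophytodienoate reductase 1 (Zm00001d011097), a jasmonate biosynthesis enzyme in its better known isoforms, had 84.6, 95.5 and 124 CPM at 24 h and 326, 161 and 155 CPM at 48 h. Its groups did not overlap, but with adjusted p = 0.106 it was not called.

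Nutrient uptake and transport changed in few described genes. Phosphate starvation-induced gene 2 (Zm00001d011734) had 6.23, 2.61 and 10.6 CPM at 24 h and 0.907, 0.288 and 0.745 CPM at 48 h. Both groups were uneven, and its change of −3.30 in log2 units (SE 0.77, adjusted p = 0.0448) was lost without WW24 replicates 1, 2 or 3 or WW48 replicates 1, 2 or 3 (adjusted p = 0.0507 to 0.143), that is, without any one of the 6 libraries. It was the only call among 11 phosphate starvation genes. Amino acid permease 6 (Zm00001d035243), which imports amino acids, rose from 2.5 ± 0.48 to 5.31 ± 0.956 CPM, with a change of 1.08 in log2 units (SE 0.23, adjusted p = 0.0344) lost without WW24 replicates 2 or 3 or WW48 replicates 1 or 2 (adjusted p = 0.0503 to 0.134). It was the only call among 26 genes of nitrate and amino acid uptake and assimilation, of which 20 were above 0, beside 59.5% of described genes. NOD26-like intrinsic protein 5;1 (Zm00001d018037), an aquaporin known in Arabidopsis as a boric acid channel, had 5.83, 3.49 and 5.13 CPM at 24 h and 18.1, 26.1 and 5.22 CPM at 48 h. WW48 replicate 3 overlapped WW24, and its change of 1.76 in log2 units (SE 0.41, adjusted p = 0.0434) was lost without WW24 replicates 1, 2 or 3 or WW48 replicates 1 or 2 (adjusted p = 0.0637 to 0.14). The far more abundant plasma membrane intrinsic protein 2 (Zm00001d019563), a water channel, had a log2 change of 0.19 (adjusted p = 0.376). Genes of sulfur and glutathione use (14 tested) had 0 calls, with 13 members above 0 and a median of 0.48, again beside 59.5% and 0.09 for described genes. Iron and other metal genes (21) and ion pumps and potassium genes (11) had 0 calls.

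Defence and signalling genes increased in 4 cases. A thaumatin superfamily gene, Zm00001d022637, of a family of pathogenesis-related proteins, had 5.17, 2.58 and 3.37 CPM at 24 h and 19.8, 14.3 and 9.6 CPM at 48 h. The groups were apart, and its change of 1.97 in log2 units (SE 0.35, adjusted p = 0.017) was lost without WW24 replicates 2 or 3 or WW48 replicate 1 (adjusted p = 0.0612 to 0.067). Chitin elicitor receptor kinase 1 (Zm00001d048016), a receptor of fungal chitin, rose from 1.06 ± 0.447 to 4.4 ± 2.15 CPM, with a change of 2.04 in log2 units (SE 0.43, adjusted p = 0.0324) lost without WW24 replicates 1 or 2 or WW48 replicate 1 (adjusted p = 0.0687 to 0.15). A leucine-rich receptor-like kinase, Zm00001d048962, rose from 0.60 ± 0.28 to 2.42 ± 1.75 CPM (log2 change 1.98, adjusted p = 0.0461), with WW48 replicate 2 at 4.42 CPM and the others under 2 CPM, lost without WW24 replicates 2 or 3 or WW48 replicates 1 or 2 (adjusted p = 0.0637 to 0.151). A calcium-binding EF-hand gene, Zm00001d005766, rose from 7.34 ± 1.47 to 17.2 ± 2.57 CPM, with a change of 1.23 in log2 units (SE 0.22, adjusted p = 0.0174) lost without WW24 replicates 2 or 3 or WW48 replicate 1 (adjusted p = 0.0571 to 0.0679). Of the 31 tested pathogenesis-related genes 1 increased and 1, the basic chitinase above, decreased, with a median of −0.16. In every WW48 library 4 were higher and 6 lower, beside 10.7% and 9.72% of all tested features. The other increases were 2 of 64 receptor and lectin kinases and 1 of 24 calcium and calmodulin genes, beside 2.19% of all described genes.

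Cytochrome P450 genes and genes of sterols and isoprenoids held 4 further increases. Cytochrome P450 76C2 (Zm00001d020673; family 76, subfamily C, polypeptide 2) had 1.79, 1.98 and 2.66 CPM at 24 h and 11, 6.77 and 5.87 CPM at 48 h. The groups were apart, with a change of 1.88 in log2 units (SE 0.34, adjusted p = 0.0178) lost without WW24 replicate 2 or WW48 replicate 1 (adjusted p = 0.0625 to 0.0641). A P450 with no subfamily name, Zm00001d005823, went from 8.4 ± 1.28 to 16.8 ± 2.24 CPM, just past the fold threshold, with a change of 1.00 in log2 units (SE 0.15, adjusted p = 0.0091), lost without WW24 replicate 1 or WW48 replicate 1 (adjusted p = 0.0259 to 0.0363, log2 change 0.89 to 0.90). Cycloartenol synthase 1 (Zm00001d014695), which makes the first cyclic sterol precursor of plants, rose from 2.25 ± 0.449 to 5.8 ± 2.18 CPM, with a change of 1.38 in log2 units (SE 0.29, adjusted p = 0.0312) lost without WW24 replicates 1, 2 or 3 or WW48 replicates 1 or 2 (adjusted p = 0.0724 to 0.112). A terpenoid cyclase gene, Zm00001d024512, had 37.2, 50.9 and 68.8 CPM at 24 h and 144, 103 and 93.7 CPM at 48 h. Its groups were apart and its change of 1.12 in log2 units (SE 0.25, adjusted p = 0.0382) was lost without WW24 replicates 1 or 2 or WW48 replicates 1 or 2 (adjusted p = 0.0588 to 0.131). These were 2 of 35 P450 genes, whose median was −0.02, and 2 of 19 sterol and isoprenoid genes, whose median was −0.07. Of all described genes 2.19% increased.

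Among the remaining increases, serine carboxypeptidase-like 20 (Zm00001d025195), of a family of proteases and acyltransferases, had 8.32, 10.6 and 9.16 CPM at 24 h and 28.2, 24.3 and 20.3 CPM at 48 h. The lowest WW48 library was well above the highest WW24 library, and its change of 1.38 in log2 units (SE 0.22, adjusted p = 0.0108) was kept in all 6 leave-one-out fits. An RmlC-like cupin, Zm00001d040997, of a family best known for seed storage proteins, rose from 0.572 ± 0.079 to 1.82 ± 0.249 CPM, with a change of 1.66 in log2 units (SE 0.26, adjusted p = 0.0106) that was also kept. Cryptochrome 3 (Zm00001d046935), of a blue light receptor family, stayed under 1 CPM and rose from 0.217 ± 0.0322 to 0.491 ± 0.0973 CPM (log2 change 1.18, adjusted p = 0.0411), lost without WW24 replicates 1, 2 or 3 or WW48 replicate 1 (adjusted p = 0.079 to 0.146). The other described increases, named after their values were seen, were the Rossmann-fold genes Zm00001d048723 and Zm00001d003841, monooxygenase 1 (Zm00001d016842), a ribonuclease H-like gene (Zm00001d001774) and a 3-oxo-5-alpha-steroid 4-dehydrogenase family gene (Zm00001d018847), with log2 changes of 2.31, 1.5, 1.16, 1.41 and 1.35. These calls were lost, in the same order, without WW24 replicates 2 or 3 or WW48 replicate 1 (adjusted p = 0.0643 to 0.0681), without WW24 replicates 1, 2 or 3 or WW48 replicate 1 (adjusted p = 0.0643 to 0.102), without WW24 replicates 2 or 3 or WW48 replicate 1 (adjusted p = 0.096 to 0.12), without WW24 replicates 1, 2 or 3 or WW48 replicate 3 (adjusted p = 0.0356 to 0.0868, log2 change 0.98) and without WW24 replicates 1 or 2 or WW48 replicate 1 (adjusted p = 0.0765 to 0.123). The feature labelled by similarity to the rice entry HFC1B_ORYSJ, a heat stress transcription factor, also chosen after its values were seen, rose from 0.131 ± 0.0866 to 0.471 ± 0.13 CPM (log2 change 1.81, adjusted p = 0.0321), lost without WW24 replicates 1 or 2 or WW48 replicates 2 or 3 (adjusted p = 0.0557 to 0.10).

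Transcription factors in the lists gave 0 calls, beside 3.19% of described genes and 0.98% of all features called in either direction. The lists were WRKY (10 tested), MYB (14), NAC (11), AP2/ERF (28), bHLH, bZIP and G-box (14) and homeobox and LOB (12) genes. WRKY genes had the highest median among them, 0.61, with 9 of 10 above 0, beside 59.5% of described genes, and 4 higher in every WW48 library, beside 10.7% of all features. WRKY DNA-binding protein 40 (Zm00001d053746), a stress-responsive factor in Arabidopsis, had 8.57, 21.9 and 15 CPM at 24 h and 26.1, 19.2 and 55.4 CPM at 48 h, overlapping, with adjusted p = 0.118. Cell cycle and DNA replication genes (10) and cytoskeleton genes (15) also had 0 calls, with medians of 0.15 and −0.04. Gamma histone variant H2AX (Zm00001d033822), a histone variant of chromatin that takes part in DNA repair, had 45.2, 46.6 and 46.4 CPM at 24 h and 45.4, 53.3 and 54.8 CPM at 48 h. Tubulin alpha-5 (Zm00001d021891), a microtubule subunit and among the most abundant described genes, had log2 change −0.04 (SE 0.07). Phloem protein 2-B1 (Zm00001d018452) went from 45.3 ± 0.444 to 45.2 ± 1.0 CPM, a log2 change of 0.00.

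**Figure D4:**
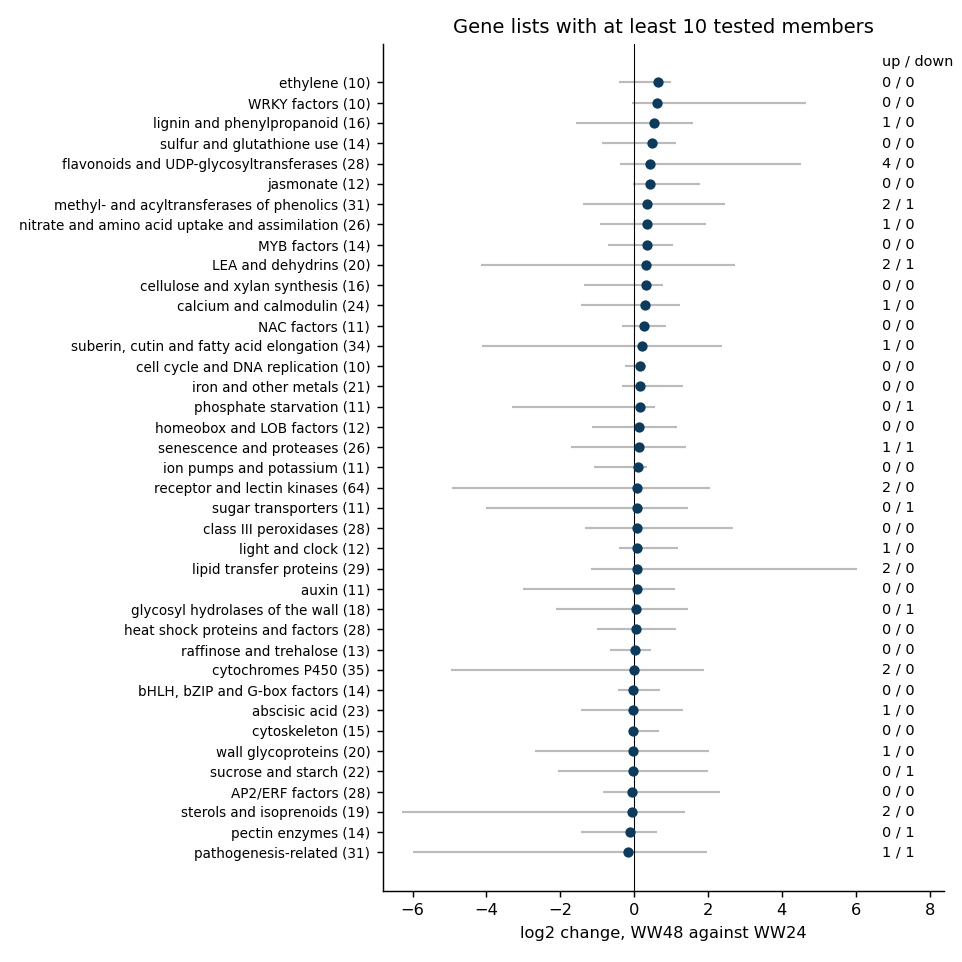
Points are the median log2 change of WW48 against WW24 (x axis) of the 39 gene lists with at least 10 tested members (y axis, number tested in brackets), grey lines run from the lowest to the highest member, and figures at the right give members called increased and decreased. Medians lie between −0.16 and 0.64, and no list has more than 4 calls.

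Organelle transcripts were rare in these libraries, for which the study isolated mRNA with oligo-dT beads. Their shares therefore do not stand for organelle RNA in the tissue. Of 157 mitochondrial and 110 plastid genes, 31 and 2 passed the filter on low counts and 0 were called. Mitochondrial genes held 0.00736 ± 0.000825% of gene counts in WW24 and 0.00805 ± 0.000496% in WW48 (exact two-sided permutation test, p = 0.30). Plastid genes held 0.000149 ± 1.44e-05% and 0.000153 ± 5.49e-06% (exact two-sided permutation test, p = 0.90). With 3 libraries against 3 the smallest p this test allows is 0.10.

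Of the genes without a description, those with the smallest adjusted p are given by identifier. Zm00001d029769 showed the widest decrease of all called features, with 31.1, 17.4 and 50.5 CPM at 24 h and 0.579, 0.384 and 0.769 CPM at 48 h. It fell from 4353 counts over WW24 to 79 over WW48, and its change of −5.83 in log2 units (SE 0.42, adjusted p = 0.00015) was the only call left under glmTreat. In the stressed groups it was low at both times, at 0.454 ± 0.222 CPM in WS24 and 0.686 ± 0.155 CPM in WS48. Zm00001d016098 fell from 1.27 ± 0.137 to 0.354 ± 0.0972 CPM (log2 change −1.84, adjusted p = 0.00299). Zm00001d017095 had 26.9, 26.6 and 28.4 CPM at 24 h and 73.2, 58.9 and 62.2 CPM at 48 h, with a change of 1.25 in log2 units (SE 0.13, adjusted p = 0.00176), and Zm00001d032485 rose from 6.28 ± 0.628 to 13 ± 1.59 CPM (log2 change 1.05, adjusted p = 0.00262). The first 3 of these 4 kept their call in all 6 leave-one-out fits, and the call of Zm00001d032485 was lost without WW48 replicate 3 (adjusted p = 0.00487, log2 change 0.98). Zm00001d016098 was not called with the 6 well-watered libraries alone.

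The same interval in stressed roots, WS48 vs WS24, shares no library with the well-watered comparison. It had 91 increased and 152 decreased features (0.34% and 0.568% of those tested). Of the 211 features that increased in well-watered tips, 8 also increased in stressed tips, which is 3.79% of the first list and 8.79% of the second, and 3 decreased there. Of the 51 that decreased, 9 also decreased under stress, 17.6% and 5.92% of the 2 lists, and 2 increased. Across the 262 called features the log2 changes of both comparisons had r = 0.17, and over 14543 features with an average log2 CPM over 3 r was 0.22. These are descriptions across genes, which are not independent replicates.

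Described genes made up 5 of the 9 that fell in both water regimes, and 0 of the 8 that rose in both. Pyruvate orthophosphate dikinase stood at 2.41 ± 0.488 CPM in WS24 and 0.659 ± 0.119 CPM in WS48, with a stressed change of −1.86 in log2 units (SE 0.26, adjusted p = 0.00404) beside −1.93 in well-watered tips. The dehydrin had a stressed change of −2.01 in log2 units (SE 0.13, adjusted p = 2.49e-05) beside −2.41, at the much higher stressed levels given above. The other 3 were the Rossmann-fold gene Zm00001d007700 (log2 change −2.09 beside −2.29), subtilase 4.13 (−1.79 beside −1.70) and the O-methyltransferase Zm00001d049181 (−1.46 beside −1.37). For these 5 genes the well-watered minus the stressed change lay between −0.40 and 0.10, with adjusted p of the difference from 0.638 to 0.96. They were picked for a decrease in both comparisons. Small differences thus follow largely from the choice and are not evidence of an equal change in both water regimes.

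**Figure D5:**
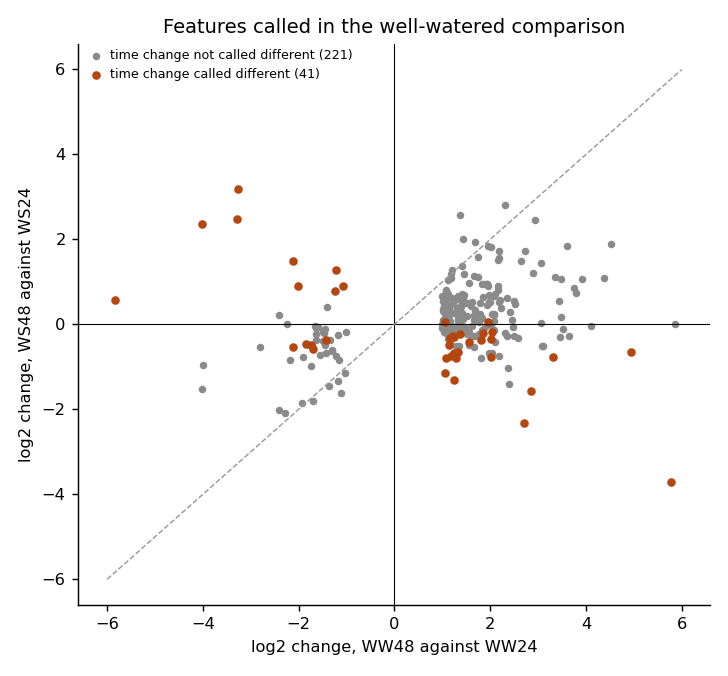
Each point is 1 of the 262 features called in WW48 against WW24, by its log2 change there (x axis) and in WS48 against WS24 (y axis), with the dashed line where both are equal. The 41 features whose time change was called different between water regimes are in orange, by a test that contains the well-watered change itself. Of the 211 increased features 132 have a stressed change above 0, beside 50.1% of all tested features, and of the 51 decreased ones 39 have one below 0.

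The difference between the well-watered and the stressed time change was tested directly, and 68 features were called higher and 35 lower in it (0.254% and 0.131% of those tested, 0.385% together). Of the well-watered calls, 27 of the 211 increases and 14 of the 51 decreases were among them. The difference contains the well-watered change by which those calls were selected, so this overlap is built in and is not independent evidence. The largest difference among the described genes named was that of phosphate starvation-induced gene 2, −5.79 (SE 1.01, adjusted p = 0.0311), with stressed levels of 3.89 ± 4.15 CPM in WS24 and 21.7 ± 9.58 CPM in WS48. The LEA gene Zm00001d009382 fell under stress, with a difference of 5.01 (SE 0.61, adjusted p = 0.00584) and stressed levels of 5.29 ± 1.11 CPM in WS24 and 1.06 ± 0.062 CPM in WS48. Starch branching enzyme 2.2 changed less under stress, at 29.4 ± 2.45 CPM in WS24 and 21.1 ± 2.24 CPM in WS48, a difference of −1.27 (SE 0.22, adjusted p = 0.028). The hydroxyproline-rich glycoprotein gene Zm00001d022420 was at 22 ± 4.17 CPM in WS24 and 19.6 ± 2.54 CPM in WS48, so that only the well-watered tips changed past the threshold, with a difference of 2.2 (SE 0.31, adjusted p = 0.0118).

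Other genes in that test changed little in well-watered tips. A lipid transfer protein gene, Zm00001d017508, had 316, 356 and 372 CPM at 24 h and 293, 309.6 and 278 CPM at 48 h, against 5.03 ± 0.915 CPM in WS24 and 26 ± 8.59 CPM in WS48, a difference of −2.61 (SE 0.26, adjusted p = 0.00202). A methylenetetrahydrofolate reductase family gene, Zm00001d047124, had a log2 change of −0.21 in well-watered tips and stressed levels of 0.58 ± 0.242 CPM in WS24 and 2.58 ± 0.541 CPM in WS48, a difference of −2.36 (SE 0.29, adjusted p = 0.00584). Lipoxygenase 1 (Zm00001d033623), which oxidises polyunsaturated fatty acids, had 34.5, 34.1 and 33.3 CPM at 24 h and 56.1, 44.5 and 36.8 CPM at 48 h, against 446 ± 31.3 CPM in WS24 and 238 ± 28.9 CPM in WS48, a difference of 1.34 (SE 0.18, adjusted p = 0.0105). A CBS domain-containing gene, Zm00001d017375, rose from 33.2 ± 4.14 to 49.6 ± 7.21 CPM past the adjusted p alone and fell under stress, a difference of 1.74 (SE 0.19, adjusted p = 0.00278), and xyloglucan endotransglucosylase/hydrolase 25 had one of 1.07 (SE 0.15, adjusted p = 0.0118). Counts in this test moved with single libraries. They were 5 higher and 8 lower without WS48 replicate 1, 12 and 15 without WS48 replicate 2, 27 and 16 without WS24 replicate 1, 26 and 18 without WS24 replicate 2, and 25 and 25 without WW24 replicate 2. Without WW48 replicate 1 they were 55 and 45. They were 43 and 24 without WW24 replicate 3, 114 and 39 without WS48 replicate 3, 159 and 56 without WW24 replicate 1 and 170 and 39 without WW48 replicate 3.

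Stressed levels of the genes that changed with time in well-watered tips lay on either side of the well-watered ones. Beta-galactosidase 11 was at 13.2 ± 0.153 CPM in WS24 and 9.05 ± 1.05 CPM in WS48 and the pectin lyase-like gene Zm00001d044110 at 14.1 ± 0.307 CPM in WS24 and 10.9 ± 0.936 CPM in WS48, above both well-watered groups. Cytochrome P450 Zm00001d005823 was at 0.865 ± 0.155 CPM in WS24 and 1.39 ± 0.163 CPM in WS48, and the acyltransferase Zm00001d039615 at 0.0599 ± 0.0249 CPM in WS24 and 0.43 ± 0.312 CPM in WS48, below both. NOD26-like intrinsic protein 5;1 was at 79.4 ± 9.16 CPM in WS24 and 68.2 ± 3.55 CPM in WS48. Since WS and WW tips also differ in length, and these comparisons share libraries with WW48 vs WW24, the values are given side by side only.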

How the data were processed

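The study made its libraries from mRNA isolated with oligo-dT beads. Strand-specific paired-end libraries were aligned by the authors with HISAT2 1.0 and counted over genes with HTSeq 0.6.1 (versions and the build, B73 RefGen_v4, from the submitters' processing notes). Per the study's methods, transcripts assembled from FR697 were also used as a reference. Whether counting used strand is not stated in its sources, so values of overlapping, antisense and near-identical genes are uncertain. The authors deposited raw counts per gene, used here, and normalized values rounded to whole numbers, treated as a score and not tested. Summary rows of the counter, with 12.7 to 15.0% unaligned reads in well-watered libraries, were left out.

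Counts of all 12 libraries (40005384 to 54863708 on genes) were filtered with filterByExpr (minimum count 10), scaled by TMM (factors 0.926 to 1.06) and fitted with edgeR 4.0.16 in R 4.3.3, with a mean per group. Each contrast was a quasi-likelihood F-test, with p-values adjusted by Benjamini-Hochberg over all features. The biological coefficient of variation was 15.9%, and SE is the log2 change divided by the square root of F. All pairs of replicates differed beyond sampling noise (chi-square per gene 5.48 to 34.5). Groups came from the sample titles. Replicate numbers were not taken as pairs, and whether libraries of both times shared an experiment was not tested. Counting intervals cover counting error only.

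Alternatives were RLE scaling, no scaling, no filter, a CPM filter above 3, DESeq2 1.42.0, glmTreat, organelle genes left out, the 6 well-watered libraries alone, a replicate block and each library left out. On simulated data of 26746 genes the procedure recovered 48, 94, 96 and 100% of 50 genes changed by a log2 of 1, 1.5, 2 and 3 in WW48 vs WW24, with 2 false calls. The changed genes had an expected count of at least 50. No simulated library was made to stand apart as WW48 replicate 1 did. The 2 false calls therefore do not give the error rate of the real calls.

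Members, lists and tests were chosen with earlier results of these data known. Named were the 12 widest described changes each way, with groups apart and an average log2 CPM of at least 1 over all 12 libraries. That average takes in the stressed libraries, so genes low in well-watered tips can pass it. Up to 4 calls per list by adjusted p, 2 undescribed genes each way and 4 each way by the interaction were also named. So were the 5 most abundant described genes and the most abundant member of lists without a call, of which a part is printed. Of the identifiers, 267 organelle genes and 0 nuclear genes matched RefSeq, so coordinates and sequences are not given.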

Additional observations from a re-analysis of the deposited data

Results flagged for a closer look

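The change between 24 h and 48 h differed between well-watered and stressed tips by the test of the difference itself for 19 named genes and 1 labelled feature (edgeR, adjusted p ≤ 0.05 and at least a 2-fold difference). Among them, 4 genes each way had been named by this same test. The others carried a call in WW48 vs WW24, which is a part of the difference. Their number thus follows from how they were chosen and is not a result. Values are the well-watered minus the stressed log2 change. The difference was positive for the LEA gene Zm00001d009382 (5.01), the hydroxyproline-rich glycoprotein Zm00001d022420 (2.2), the feature labelled HFC1B_ORYSJ (2.19), the lipid transfer protein Zm00001d013089 (2.09), highly ABA-induced PP2C gene 2 (1.98), cryptochrome 3 (1.92), UDP-glucosyl transferase 85A2 (1.87), the CBS domain gene Zm00001d017375 (1.74), lipoxygenase 1 (1.34), xyloglucan endotransglucosylase/hydrolase 25 (1.07) and Zm00001d032485 (1.00). It was negative for Zm00001d029769 (−6.41), phosphate starvation-induced gene 2 (−5.79), the lipid transfer protein Zm00001d017508 (−2.61), the methylenetetrahydrofolate reductase family gene Zm00001d047124 (−2.36), beta-galactosidase 11 (−1.57), Zm00001d016098 (−1.39), starch branching enzyme 2.2 (−1.27), the aldolase-type gene Zm00001d020008 (−1.12) and the pectin lyase-like gene Zm00001d044110 (−1.06).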

How the results depend on the processing

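No named call changed direction under any alternative run. Against 211 increased and 51 decreased features, DESeq2 called 369 and 102, adjusted p alone 501 and 191, the 6 well-watered libraries alone 42 and 17, and glmTreat 0 and 1. Among described genes (33 and 15) these settings gave 54 and 29, 61 and 32, 9 and 6, and 0 and 0. Leaving out 1 library gave 71 to 333 increased and 24 to 62 decreased features, with 10 to 55 and 9 to 18 described genes, and for the difference of time changes 5 to 170 higher and 8 to 56 lower. That difference (68 higher and 35 lower) had 332 and 94 calls with DESeq2, 133 and 53 without a filter, and 103 and 64 by adjusted p alone. The other scalings, the CPM filter and leaving out organelle genes kept the counts of the well-watered comparison within 1.5 times. The mitochondrial share (WW48 minus WW24, in percentage points) ranged from 0.000302 to 0.00112 and the plastid share from −4.51e-06 to 9.71e-06 with 1 library left out. With the replicate number as a block, 117 increased and 33 decreased features were called over 12 libraries (18 described genes increased), and 8 and 7 over the 6 well-watered libraries (0 and 3 described genes), and the difference of time changes had 40 higher calls. Correlations of deviations between same-numbered libraries were −0.11, −0.13 and 0.01, and 1 of 3 WW24 libraries correlated best with its own number, so the numbers were not taken as pairs. Of 53 named calls, 31 were lost without WW48 replicate 1, 28 without WW24 replicate 2, 25 without WW24 replicate 3, 20 without WW24 replicate 1, 12 without WW48 replicate 2, 6 without WW48 replicate 3, 52 under glmTreat, 34 with the 6 well-watered libraries alone (2 were not tested there) and 1 under the CPM filter. The 2 not tested with the 6 well-watered libraries alone were the Nodulin MtN3 family gene Zm00001d029135 and the LEA gene Zm00001d009382. Why the counts moved was not tested.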

Other observations

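A group of genes varied between replicates rather than between times, and was noticed after the values were seen. Among 19933 tested features with an average log2 CPM of at least 1, 97 were at least 3 times higher in WW24 replicate 1 than in both other WW24 libraries, and 53 at least 3 times higher in WW48 replicate 2 than in both other WW48 libraries. The 2 sets shared 34 features, while the other 8 pairings of a WW24 with a WW48 library shared 0 to 5. Among those with a description, myb domain protein 48 (Zm00001d035605) had 83.3, 0.886 and 1.17 CPM at 24 h and 5.67, 78.1 and 3.24 CPM at 48 h. A glycosyl hydrolase superfamily gene, Zm00001d038049, had 86.3, 2.94 and 8.84 CPM at 24 h and 62.9, 191 and 18.1 CPM at 48 h, laccase 7 (Zm00001d042848), which oxidises lignin monomers, had 7.51, 0.608 and 1.44 CPM at 24 h and 2.28, 11.3 and 1.65 CPM at 48 h, and plant cadmium resistance 2 (Zm00001d050899) had 15.6, 2.46 and 3.25 CPM at 24 h and 4.75, 17.3 and 2.65 CPM at 48 h. The average is taken over all 12 libraries, so some of the 34 pass it through stressed libraries and have few reads in well-watered ones, and these are not named. Catalase 1 (Zm00001d054044), which breaks down hydrogen peroxide, had a milder form of this pattern, with 73, 34.6 and 34.4 CPM at 24 h and 33.9, 69.7 and 25.7 CPM at 48 h. None of these named genes was called between 24 h and 48 h, and what WW24 replicate 1 and WW48 replicate 2 have in common was not tested.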
